A study of Mus musculus with 6 samples.

Results

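The genes described here buffer, sense and move zinc. They are the metallothioneins *Mt1*, *Mt2* and *Mt3*, the transcription factor *Mtf1*, the zinc exporter *Slc30a1*, and the zinc importers *Slc39a8*, *Slc39a14* and *Slc39a10*. They were chosen by name, with earlier results of these data known. All 8 were found among the 19079 genes of the deposited comparison table. All 8 had a mean of at least 10 normalized counts over the 6 libraries, as did 15181 genes in all, which are called tested genes below.

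RNA was sequenced from ventricles of C57BL/6 mice at postnatal day 10 to compare hearts that overexpress *Runx1*, a transcription factor of the RUNX family, with hearts that do not. The *Runx1* OE group (4 mice, Myh6-CreER; Rosa-Runx1 OE) carried a Cre that the Myh6 promoter drives in cardiomyocytes and that tamoxifen activates, together with a Rosa-Runx1 allele. The Myh6-CreER control group (2 mice) carried the same Cre without that allele, and mice of both genotypes received tamoxifen on postnatal days 0 and 1. Cre acts in cardiomyocytes, whereas the RNA came from whole tissue that also holds fibroblasts, endothelial cells, smooth muscle, macrophages and blood. In such bulk samples, fewer cells of a type and less RNA per cell cannot be told apart. The sample labels name neonatal heart ventricles as the tissue and left ventricles in the protocol, and the study's methods name whole ventricles without atria and outflow tract.

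Every level below is an authors' group mean in normalized counts, that is, counts divided by a size factor for each library. Values of single libraries could not be assigned to mice, so no test was run and no standard deviation is given. A gene was counted as past the fold used where its group means differed by at least 1.5-fold. The deposited mean, maximum and geometric mean over the 6 libraries also limit what any single library can have held. From these limits it was worked out for which genes no set of library values allows a *Runx1* OE library and a control library to overlap, and how large the relative spread within the groups was, which is called the implied spread. Both were added after the data had been seen.

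As a check of the labels, the mean of *Runx1* itself came to 16622 normalized counts with the *Rosa-Runx1* allele and to 40.2 without it, and the groups could not overlap. Cardiomyocyte markers were abundant in both groups, with the means of the 6 markers adding up to 399424 in *Runx1* OE and 480407 in control. Of these 6, *Ryr2*, the calcium release channel, was past 1.5-fold lower in *Runx1* OE (5926 against 9945). *Myh6* averaged 110044 against 164720, just under the fold used, and the groups of both genes can overlap. Of the 6, 4 had a log2 ratio below 0, and the median was -0.24. The 4 atrial markers were all past 1.5-fold higher in *Runx1* OE, with a sum of 1768 against 401, of which *Nppa* held 1420 and 288. Among the 4, only *Nppa* had groups that could not overlap. In each, the highest library, a *Runx1* OE heart, held 50.4% to 58.6% of the group total. *Sln*, which marks atrial muscle, was at 0 in at least 1 library. The 6 erythroid markers added up to 98992 against 89933, and 1 of them, *Slc4a1*, was past 1.5-fold higher, with groups that can overlap. None of the 6 fibroblast, 6 endothelial, 6 smooth muscle and pericyte, or 6 macrophage and leukocyte markers was past 1.5-fold. Over all tested genes, 5.49% were past 1.5-fold higher and 3.96% lower. With group totals allowed to be off by 1% of the smaller one, the groups of *Postn* (higher), *Acta2*, *Csf1r* and *Mrc1* (lower) could not overlap. The same held for the cardiomyocyte marker *Tnnt2* (lower), and all of these calls were lost when 2% was allowed. *Xist*, which female cells transcribe, averaged 4584 in *Runx1* OE and 8.92 in control. No control library can have held more than 18.0, while a *Runx1* OE library can have held as little as 1.99, so the *Runx1* OE hearts may be of both sexes. With values of single libraries not assigned to mice, sex and genotype cannot be told apart here. Whether the makeup of the tissue, atrial muscle or sex has a part in any difference below was not tested.

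Metallothioneins are small proteins rich in cysteine that bind zinc, copper and cadmium, and that buffer free zinc in the cell. When free zinc is high, the zinc finger protein MTF1 binds short metal response elements (MREs) in the promoters of *Mt1*, *Mt2* and *Slc30a1* and activates them. Glucocorticoids, inflammatory signals and oxidative stress also induce *Mt1* and *Mt2* in many tissues. Most SLC30 proteins carry zinc out of the cytosol, whereas SLC39 proteins carry it in, and several SLC39 members also carry manganese or iron. In the lists below, exporter and importer name the gene family, SLC30 or SLC39, and not a measured direction of transport.

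The metallothioneins lie side by side on chromosome 8 of GRCm39, all on the plus strand. *Mt3* occupied positions 94879235 to 94880774, *Mt2* positions 94899292 to 94900196 and *Mt1* positions 94905710 to 94906955 in the deposited table, with 18517 bases between *Mt3* and *Mt2* and 5513 bases between *Mt2* and *Mt1*. Their promoters are shown because MTF1 acts there, together with that of the exporter *Slc30a1*, a known MTF1 target on chromosome 1. Each window is from RefSeq (table build GRCm38.p6), runs from 250 bases before to 50 after a transcription start, is written 5′ to 3′ on the strand of the gene, and matched GRCm39 at 1 place. Capitals mark matches to the MRE core, spelled TGCACNC or TGCGCNC, on either strand.
Mt3 (chr8:94878985-94879284, plus strand): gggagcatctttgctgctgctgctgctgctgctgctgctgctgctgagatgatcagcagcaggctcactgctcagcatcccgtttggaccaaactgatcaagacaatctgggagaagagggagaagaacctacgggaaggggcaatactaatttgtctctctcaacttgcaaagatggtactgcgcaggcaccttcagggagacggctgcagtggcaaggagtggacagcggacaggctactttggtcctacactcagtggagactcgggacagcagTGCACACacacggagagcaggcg
Mt2 (chr8:94898996-94899295, plus strand): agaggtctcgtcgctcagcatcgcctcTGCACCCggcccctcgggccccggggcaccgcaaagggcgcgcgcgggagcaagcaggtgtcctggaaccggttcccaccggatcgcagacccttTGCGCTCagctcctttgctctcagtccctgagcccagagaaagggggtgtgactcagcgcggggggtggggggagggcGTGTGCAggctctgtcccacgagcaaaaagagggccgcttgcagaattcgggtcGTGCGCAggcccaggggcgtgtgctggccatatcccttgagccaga
Mt1 (chr8:94905467-94905766, plus strand): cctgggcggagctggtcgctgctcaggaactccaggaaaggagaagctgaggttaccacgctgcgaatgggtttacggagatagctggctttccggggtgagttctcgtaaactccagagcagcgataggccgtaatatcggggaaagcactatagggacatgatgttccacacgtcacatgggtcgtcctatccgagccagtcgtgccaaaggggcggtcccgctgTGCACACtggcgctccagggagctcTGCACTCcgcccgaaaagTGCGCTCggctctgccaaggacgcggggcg
Slc30a1 (chr1:191638643-191638942, plus strand): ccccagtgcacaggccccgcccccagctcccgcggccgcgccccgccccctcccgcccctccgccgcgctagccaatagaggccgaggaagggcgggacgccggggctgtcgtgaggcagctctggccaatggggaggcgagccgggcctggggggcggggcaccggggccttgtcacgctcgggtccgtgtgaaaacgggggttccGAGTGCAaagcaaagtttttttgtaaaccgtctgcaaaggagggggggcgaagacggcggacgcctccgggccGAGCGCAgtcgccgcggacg

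The *Mt2* window held 4 MRE matches, the *Mt1* window 3, the *Slc30a1* window 2 and the *Mt3* window 1. In the *Mt1*, *Mt2* and *Slc30a1* windows, matches lay both before and after the transcription start used. The only *Mt3* match lay after it, at position 28. The *Mt2* window ended at 94899295, close to the *Mt2* start of 94899292 in the deposited table, so the start used lay before that one. Of all 32851 promoters of this length in the table, 25.7% held at least 1 match, 7.11% at least 2, 1.97% at least 3 and 0.517% at least 4. Among the 13768 promoters of tested genes the shares were higher, at 35.3%, 11.2%, 3.12% and 0.864%. A promoter was found for 7 of the 8 genes. The *Mtf1* window held 0 matches, as did both windows of *Slc39a10*, and of the 2 windows of *Slc39a8* 1 held a match. The letters TGTGGT and TGCGGT, spellings of the RUNX core, were found in 1 place in the *Mt2* window. That place shared no base with an MRE match. They were also found in 1 place in each of the 2 *Slc39a8* windows. The windows of *Mt1*, *Mt3*, *Slc30a1*, *Mtf1* and *Slc39a10* held 0 places. Of all promoters 22.4% held at least 1, as did 20.6% of those of tested genes. A match of letters in a window is a description and not evidence of binding, and no binding was measured here.

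*Mt2* and *Mt1* had higher means in *Runx1* OE hearts, 4.23-fold and 1.62-fold, whereas the third metallothionein, *Mt3*, had a lower mean. Of the 8 genes, 2 were past 1.5-fold higher, against 5.49% of all tested genes, and 0 were past 1.5-fold lower, against 3.96% of all tested genes. The *Runx1* OE and control libraries could not overlap for 2 genes that were higher in *Runx1* OE, against 6.18% of tested genes. The same held for 2 that were lower, against 5.72%. Because the genes were chosen with earlier results of these data known, these counts are not independent of the choice. The median log2 ratio of the 8 genes was -0.06, beside 0.01 for all tested genes. Among roles, *Mt1* and *Mt2* were above the fold used, and *Mt3*, the sensor and the transporters within it.

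**Figure D1:**
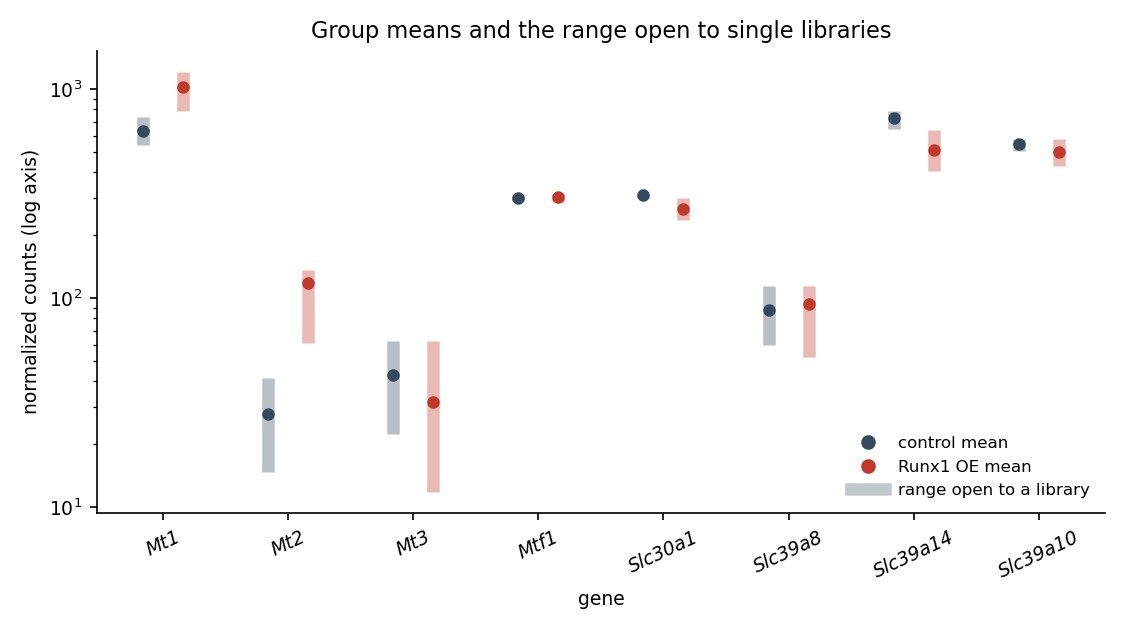
Group means of the 8 genes in normalized counts (log axis), with dots for the authors' mean of the control (blue) and *Runx1* OE (red) libraries and bars for the range that the deposited mean, maximum and geometric mean allow any single library. The control and *Runx1* OE bars are apart for *Mt1* and *Mt2*, nearly touch for *Slc30a1* and *Slc39a14*, and overlap for the other 4 genes. Bars narrower than a dot are hidden behind it.

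*Mt2*, a metallothionein of nearly all tissues (ENSMUSG00000031762), averaged 118 in *Runx1* OE and 28.0 in control. Its highest library had 136.9. That library was a *Runx1* OE heart, since no control library can have held more than 41.7, and no *Runx1* OE library can have held less than 61.2. All 4 *Runx1* OE libraries were therefore above both controls. The log2 ratio was 2.08, higher than in 99.6% of tested genes, beside an implied spread of 0.52 on the same scale (36.0% in relative terms). Without its highest *Runx1* OE library, *Mt2* would still be at least 4.00-fold higher.

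*Mt2* was the less abundant of the pair in both groups. Per kilobase of the canonical transcript, its level was 158 in *Runx1* OE and 37.4 in control, whereas that of *Mt1* was 1341 and 829. The canonical transcripts of *Mt1* and *Mt2* were 65.8% identical over 638 aligned bases and shared 0 runs of 31 identical bases. *Gm45774*, a gene on the opposite strand that shares 783 exon bases with *Mt2*, averaged 8.50 in *Runx1* OE and 1.56 in control, under the minimum mean. No source used here says whether the counting used strand, so reads of *Mt2* and *Gm45774* cannot be told apart where they overlap.

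*Mt1*, the metallothionein with the highest level per kilobase (ENSMUSG00000031765), averaged 1022 in *Runx1* OE and 632 in control, and its highest library had 1211. No control library can have held more than 738, and no *Runx1* OE library less than 787. As for *Mt2*, all 4 *Runx1* OE libraries were above both controls. The log2 ratio of 0.69 was higher than in 96.1% of tested genes and exceeded the implied spread of 0.20 (14.0%). Without the highest *Runx1* OE library the ratio would be at least 1.52-fold, just above the fold used. *Mt1* is drawn in the study's heat map of RUNX1 target genes for these samples, as read from that picture, so its choice is not independent of its values.

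*Mt3*, a metallothionein best known from the brain (ENSMUSG00000031760), averaged 32.0 in *Runx1* OE and 42.7 in control, with a highest library of 62.3, or 37.0 and 49.3 per kilobase of transcript. The limits allowed 11.8 to 62.3 for a *Runx1* OE library and 22.4 to 62.3 for a control, so the groups can overlap. Its log2 ratio of -0.42 was smaller in size than its implied spread of 0.82 (56.8%), the widest of the 8. *Mt4* was not among the genes of the deposited comparison table, so no level is given for it. Summed over *Mt1*, *Mt2* and *Mt3*, the group means came to 1172 in *Runx1* OE and 702 in control.

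**Figure D2:**
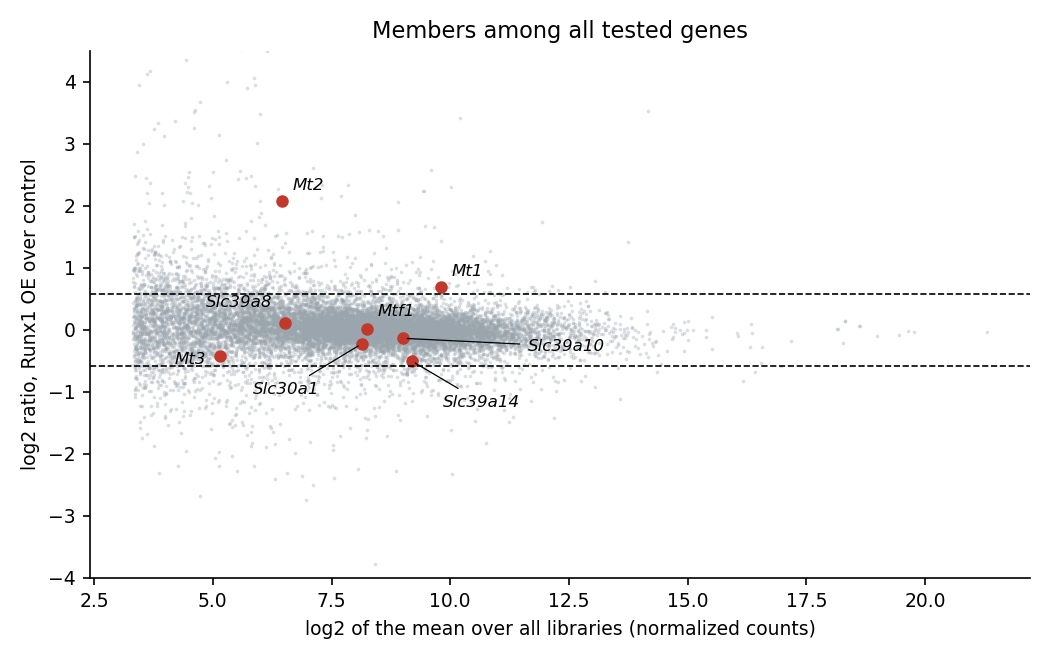
Log2 of the *Runx1* OE mean divided by the control mean, against the log2 of the mean over all 6 libraries in normalized counts, for the 15181 tested genes (grey) and the 8 zinc genes (red), with dashed lines at 1.5-fold in either direction. *Mt2* (2.08) and *Mt1* (0.69) lie above the upper line and the other 6 between the lines, and 12 genes fall outside the plotted range.

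*Mtf1*, which encodes the zinc sensor that activates metallothionein genes (ENSMUSG00000028890, chromosome 4, 124695897 to 124743593, plus strand), had nearly equal means. It averaged 306 in *Runx1* OE and 303 in control, and its highest library had 314. The log2 ratio was 0.02 with an implied spread of 0.04 (2.91%), the narrowest of the 8 genes. The limits placed every library between 290.0 and 314, so at the RNA level *Mtf1* lay within a narrow band in both groups. *Mtf1* shares 761 exon bases with *1110065P20Rik* on the opposite strand, whose reads are included if the counting did not use strand.

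Other genes known as MTF1 targets were set beside these. Of 6 that were tested, 0 were past 1.5-fold, against 5.49% of all tested genes higher and 3.96% lower. Among the 6, 0 had groups that could not overlap, against 6.18% higher and 5.72% lower, and the median log2 ratio was 0.08. Counts of 0 among 6 genes say little about these targets. The one with the highest mean, *Cited2*, a transcriptional coregulator, averaged 765 in *Runx1* OE and 885 in control. *Ndrg1*, a gene induced by metals and low oxygen, averaged 624 and 633.

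*Slc30a1*, the exporter of the plasma membrane (ENSMUSG00000037434, chromosome 1, 191638879 to 191645359, plus strand), had a lower mean in *Runx1* OE. It averaged 266 in *Runx1* OE and 311 in control, with a highest library of 314.5. The log2 ratio was -0.23, with an implied spread of 0.09 (6.04%). With 1% allowed, no *Runx1* OE library can have held more than 301.4 and no control less than 301.6, a margin of almost nothing. With 2% allowed, the groups can overlap. *Slc30a1* shares 468 exon bases with *1700034H15Rik* on the opposite strand.

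Of the 3 importers, 2 had a lower and 1 a higher mean in *Runx1* OE. *Slc39a14*, which carries zinc, iron and manganese into cells (ENSMUSG00000022094, chromosome 14, 70540918 to 70588874, minus strand), averaged 512 in *Runx1* OE and 724 in control, and its highest library, a control, had 787. With 1% allowed, *Runx1* OE libraries can have held 406 to 635 and controls 647 to 787, which puts both controls above all 4 *Runx1* OE libraries. With 2% allowed, the groups can overlap. The log2 ratio was -0.50 (1.42-fold lower), with an implied spread of 0.19 (13.1%), and 5.26% of tested genes had a lower ratio. It was the largest difference among the 16 tested zinc transporters and did not reach the fold used.

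*Slc39a10*, an importer of the plasma membrane (ENSMUSG00000025986, chromosome 1, 46846704 to 46932012, minus strand), averaged 498 in *Runx1* OE and 548 in control, with a highest library of 576. Its log2 ratio of -0.14 was about as large as its implied spread of 0.13 (9.30%), and the groups can overlap. It shares 318 exon bases with *Dnah7c* on the opposite strand. *Slc39a8*, an importer of zinc, manganese and cadmium (ENSMUSG00000053897, chromosome 3, 135531040 to 135594333, plus strand), averaged 94.3 in *Runx1* OE and 87.7 in control with a highest library of 113.9. Its log2 ratio of 0.10 was smaller than its implied spread of 0.42 (29.3%), and the groups can overlap.

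The calls of no overlap were not all equally firm. Each group total was allowed to be off by 1% of the smaller one, and when 2% was allowed, the groups of *Mt1* and *Mt2* still could not overlap, whereas those of *Slc30a1* and *Slc39a14* could. The counts over all tested genes were then 648 higher and 571 lower, in place of 938 and 868.

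The remaining zinc transporters gave a background for the members. Of 20 others listed, 15 were in the table and 12 were tested. None of the 12 was past 1.5-fold, against 5.49% of all tested genes higher and 3.96% lower, so 0 among 12 says little. Of the 12, 8 had a log2 ratio above 0 and 4 below, and the median was 0.04. The ratios ran from -0.37 for *Slc39a13*, an importer of the secretory pathway, to 0.22 for *Slc39a11*. *Slc39a13* averaged 650.4 in *Runx1* OE and 841 in control, and *Slc30a5*, an exporter of the secretory pathway, averaged 553 and 508, and for these 2 genes the groups could not overlap when 1% was allowed but could when 2% was. The importer with the highest mean, *Slc39a1*, averaged 1532 and 1616. The SLC30 gene with the highest mean, *Slc30a9*, averaged 1358 and 1307. The means of the 6 tested SLC30 genes added up to 3180 in *Runx1* OE and 3158 in control. Those of the 10 tested SLC39 genes added up to 5539 and 6042.

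**Figure D3:**
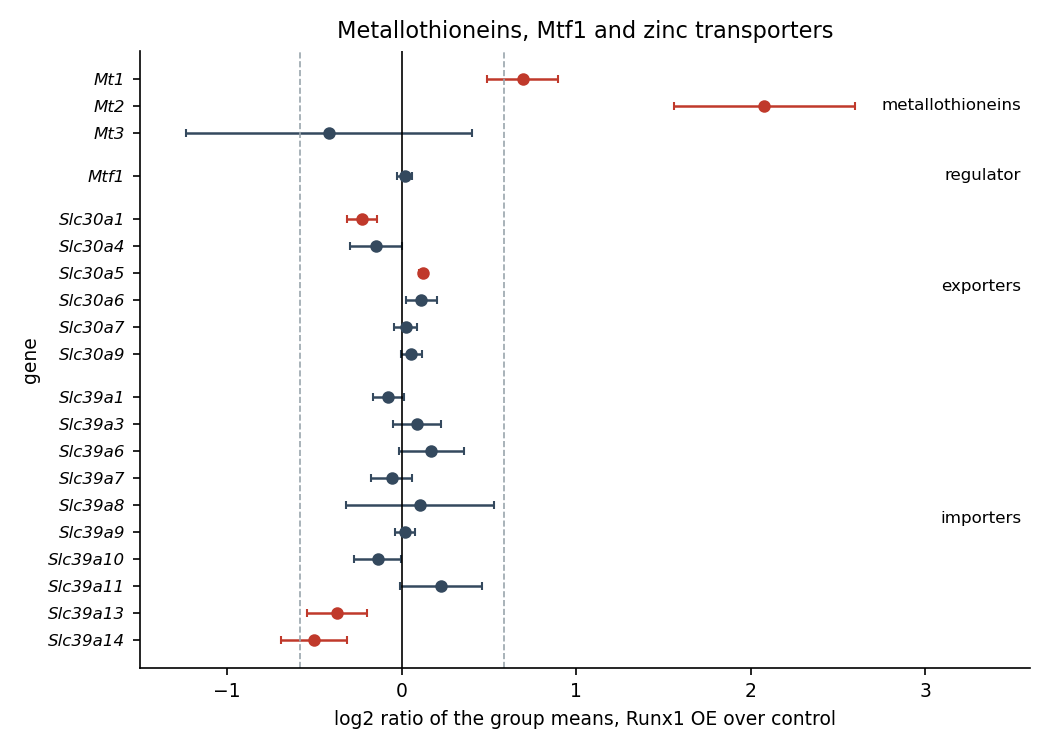
Log2 of the *Runx1* OE mean divided by the control mean, for the tested metallothioneins, *Mtf1*, and the tested zinc exporters and importers, where dots are the ratios, bars 1 implied spread to either side, and dashed lines 1.5-fold. Red marks genes whose groups could not overlap when group totals were allowed to be off by 1% of the smaller one. *Mt1* and *Mt2* lie right of the upper line and all 16 transporters between the lines, with *Slc39a14* (-0.50) farthest to the left.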

How the data were processed

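RNA of 4 *Runx1* OE and 2 Myh6-CreER control ventricles was sequenced as oligo(dT) libraries in 150 bp paired reads. By the study's methods, the authors aligned with STAR to mm39, quantified Ensembl release 110 with Partek E/M, normalized by the median ratio and compared groups with DESeq2, whereas HISAT2 and mm9 stand in the submitters' processing notes. The deposited group means, maximum and geometric mean are a normalized signal (counts divided by a size factor), and the means over the 6 libraries summed to 19422828 normalized counts. The number of reads of each library was not used here, so the precision of a low level is unknown.

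Groups came from the genotype labels. The planned test, limma on values per sample, was not run, because the 6 columns of single samples carry names that match no sample label and were not used. The authors' own fold changes, p-values and adjusted p-values were not used. In their place, the log2 ratio of the authors' group means was computed for genes with a mean of at least 10, with 1.5-fold as the fold used and no pseudocount. The log2 ratio of the summed group means was -0.05, and scaling both groups to the same sum shifts each log2 ratio by that size. The limits on single libraries allowed a shift of 1% of the smaller group total. Over tested genes, the group means weighted by 4 and 2 came to between 99.24% and 100.6% of the deposited mean over all 6 libraries. Those percentages concern the mean over all libraries and not the total of 1 group, so they do not show that 1% is enough. The implied spread (4 degrees of freedom) takes the same relative spread in both groups. The limits were tested on simulated data whose group means were off by much less than 1%, with a spread mostly narrower than that of *Mt2* and *Mt3*. That test therefore does not show that 1% is enough. The deposited stop was taken as 1 base past the end of a gene, as comparison with GENCODE M39 showed. Exon overlaps and canonical transcripts are from GENCODE M39.

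The members and lists were chosen with earlier results of these data known. The text names the 8 members and, of each list, no more than 4 genes past the fold used whose mean was 50 or above and no more than 2 with the highest mean. Other genes named, such as *Slc39a11*, *Slc39a13*, *Slc30a5*, *Srxn1*, *Sln*, *Tnnt2*, *Mrc1* and *Gm45774*, were chosen after their values were seen. Python 3.11.15 with numpy 2.4.6, pandas 2.3.3, matplotlib 3.10.9 and Biopython 1.88 was used.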

Additional observations from a re-analysis of the deposited data

How the results depend on the processing

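No paired analysis was possible because the group means carry no sample numbers. For the same reason, leaving out each replicate, upper quartile scaling, pseudocounts on values of single samples and limma were not run. With pseudocounts of 1 and 5 added to the group means, 786 and 648 genes were higher and 571 and 508 lower, beside 834 and 601. With both groups scaled to the same sum, 996 genes were higher and 519 lower. The counts of genes past the fold used moved with the settings that define them. With no filter on low means, 2013 genes were higher and 1346 lower in *Runx1* OE, with a mean of at least 50 they were 370 and 365, and at 2-fold 270 and 178. At 2-fold, 1 member (*Mt2*) was higher. With the rule of no overlap, 2 members were lower (*Slc30a1* and *Slc39a14*) in place of 0. Of the 40 ratios of single members under other settings, 37 moved by less than the implied spread and 3 by more, namely *Mtf1* at 0.07 with both groups scaled to the same sum, and the bounds without the highest library of -0.32 for *Slc30a1* and -0.79 for *Slc39a14*, which take that library for a *Runx1* OE one although by the limits it was a control. None changed sign. The precision of *Mt2* and *Mt3* is limited by their low levels, by only 2 controls, and by group means that hold no value of a single mouse.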

Other observations

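Gene groups tied to signals that also induce metallothioneins were described in the same way. Over all tested genes, 5.49% were past 1.5-fold higher and 3.96% lower, so a count of 0 in lists this small says little. The glucocorticoid list held 16 tested genes, among them the receptor *Nr3c1*, which is not itself counted as an induced gene elsewhere. Of these 16, 0 were past 1.5-fold higher and 2 past 1.5-fold lower, with a median log2 ratio of -0.16. These 2 were *Pdk4*, a kinase that restrains glucose oxidation, with means of 2988 in *Runx1* OE and 8013 in control (2.68-fold lower), and *Angptl4*, an inhibitor of lipoprotein lipase, with 748 and 1681 (2.25-fold lower), and for both the groups could not overlap. Both are also induced by fatty acids through PPARs. *Fkbp5*, a classic glucocorticoid-induced gene, averaged 175.4 and 127.2, under the fold used. The receptor *Nr3c1* averaged 1749 and 2003, and its groups could not overlap when 1% was allowed, a call lost when 2% was.

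Of 9 tested oxidative stress genes, 0 were past 1.5-fold, with a median log2 ratio of 0.11. *Srxn1*, which reduces oxidized peroxiredoxins, averaged 208 and 152, and its groups could not overlap. *Prdx1*, a peroxiredoxin, averaged 2974 and 2652, and *Nfe2l2*, the regulator of this group, 1147 and 1288. Of 8 tested IL-6 and acute phase genes, 1 was past 1.5-fold higher, *Serpina3n*, at 16.8 and 4.07. *Il6st* and *Stat3*, which carry IL-6 signals, averaged 2476 against 2606 and 1910 against 1872.

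Genes that handle other metals stayed mostly within the fold used, as did most tested genes. Of 14 tested copper genes, 0 were past 1.5-fold, with a median log2 ratio of 0.01, and *Ccs*, the copper chaperone of *Sod1*, averaged 212 and 187, with groups that could not overlap when 1% was allowed, a call lost when 2% was. Of 13 tested iron genes, 1 was past 1.5-fold lower, *Steap3*, a ferrireductase of endosomes, at 605 against 964, with groups that can overlap. The ferritin genes *Fth1* and *Ftl1* averaged 19328 against 15709 and 5268 against 3983, under the fold used.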
